A study of Mus musculus with 12 samples.

Results

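The Cyp2a and Cyp2d families of cytochrome P450 genes were described in the livers of mice lacking interleukin-18 and of wild type mice. The members were the genes Cyp2a4, Cyp2a5, Cyp2a12, Cyp2a22, Cyp2d9, Cyp2d10, Cyp2d22 and Cyp2d26, and their probes were those that carried one of these names in the scanner files. Of the 8 names, 7 were found, on 8 of the 55681 probes outside the controls. No probe carried the name Cyp2a5. Both probes named Cyp2a4 list transcripts of Cyp2a4 and of Cyp2a5, so the 2 genes cannot be told apart on these arrays, and the values given for Cyp2a4 below are those of Cyp2a4/Cyp2a5 together. All 7 genes passed the filter on dim probes, among 22116 genes tested.

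Whole livers of untreated BALB/c mice were taken in 4 groups of 3: interleukin-18 knockout mice aged 12 weeks, knockout mice aged 6 weeks, wild type mice aged 12 weeks and wild type mice aged 6 weeks. Each liver RNA was hybridised to its own 1-colour Agilent array. The labels call the arrays of a group biological replicates. The sex of the mice, the hour of killing, the making of the knockout allele and whether wild type mice were littermates are not given in the sources used here. The question was how genotype and age, crossed in the design, bear on the liver transcripts. Interleukin-18 is a cytokine made by macrophages and epithelial cells, known for inducing interferon-gamma.

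Cytochrome P450 enzymes of family 2 are heme proteins of the hepatocyte endoplasmic reticulum that oxidise steroids, drugs and other foreign compounds with electrons passed on by P450 oxidoreductase. In the mouse, CYP2A4 hydroxylates testosterone and CYP2A5 hydroxylates coumarin and nicotine, and both genes are known for a daily rhythm driven by DBP, a transcription factor of the PAR bZIP family that also holds TEF and HLF. Cyp2a4 is also known for higher levels in females and Cyp2d9, a testosterone hydroxylase, for higher levels in males, a sex difference set by the pulses of growth hormone and its mediator STAT5. CYP2D22, CYP2D10 and CYP2D26 belong to the mouse family whose human relative, CYP2D6, metabolises many drugs.

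The probes are DNA oligomers of 60 bases. The sequences shown here are those on which the larger Cyp2a4/Cyp2a5 change and the Cyp2d9 change were read, with no base in capitals because no part of a probe was singled out.
Cyp2a4/Cyp2a5 probe 2: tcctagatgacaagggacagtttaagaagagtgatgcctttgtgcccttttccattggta
Cyp2d9 probe: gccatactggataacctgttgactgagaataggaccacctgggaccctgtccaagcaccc
The files place probe 2 of Cyp2a4 on the plus strand of mm9 at chr7:27098659-27099724, an interval of 1066 bases for a 60-base probe, so its bases are not contiguous in the genome. Probe 1 of Cyp2a4 lies downstream at chr7:27099880-27099939. The Cyp2a22 probe lies at chr7:27716650-27716709 on the minus strand and the Cyp2a12 probe at chr7:27821770-27821829 on the plus strand. On chromosome 15, the files place the Cyp2d22 probe at chr15:82204377-82204436, the Cyp2d10 probe at chr15:82233276-82233335 and the Cyp2d26 probe at chr15:82620575-82620634, all on the minus strand, and the Cyp2d9 probe at chr15:82285582-82285641 on the plus strand. An exon or UTR annotation of mm9 was not used here.

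The promoters of Cyp2a4 and Cyp2a5 are shown because the only Cyp2a probes that moved in both genotypes with age belong to this pair. The windows of 300 bases, on the plus strand of GRCm38.p6, reach from upstream of the start of the gene to shortly after it, as RefSeq gives it. Capitals mark TTGCATAA, the reverse complement of TTATGCAA, which resembles the PAR bZIP motif TTATGTAA, and CAAAGTCC, a core motif of the hepatocyte factor HNF4A.
Cyp2a4, chr7:26306942-26307241: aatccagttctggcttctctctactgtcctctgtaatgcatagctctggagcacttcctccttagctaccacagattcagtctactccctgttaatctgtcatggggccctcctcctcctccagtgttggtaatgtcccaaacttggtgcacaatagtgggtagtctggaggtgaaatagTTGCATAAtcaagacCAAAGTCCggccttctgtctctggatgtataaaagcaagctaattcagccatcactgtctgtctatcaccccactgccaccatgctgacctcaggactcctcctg
Cyp2a5, chr7:26835089-26835388: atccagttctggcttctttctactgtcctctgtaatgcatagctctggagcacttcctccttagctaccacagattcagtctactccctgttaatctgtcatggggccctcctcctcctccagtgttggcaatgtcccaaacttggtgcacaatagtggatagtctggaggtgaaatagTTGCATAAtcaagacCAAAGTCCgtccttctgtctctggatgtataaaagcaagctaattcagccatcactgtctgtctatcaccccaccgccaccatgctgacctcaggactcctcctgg
The 2 windows had the same base at 294 of 299 positions (98.3%) when set off by 1 base, against 258 of 289 (89.3%) for Cyp2a12 and Cyp2a22. TTATGCAA lay 70 bases before the start in Cyp2a4 and 71 bases before it in Cyp2a5, and CAAAGTCC 55 and 56 bases before it. Among 32851 promoters of the same length, 0.743% held TTATGCAA and 1.42% held CAAAGTCC on either strand. These 2 motifs were chosen after the sequences had been seen. TTATGTAA, TTACGTAA, the STAT motif TTCNNNGAA and the direct-repeat HNF4 motif, searched on both strands, were not among the letters of any of the 7 member promoters in the table. Of all promoters, 0.938%, 0.119%, 8.30% and 0.0396% held these motifs, in that order. The table has no promoter for Cyp2d22. A match in such a window is a description of its letters and not a binding site.

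The arrays were alike in signal. The 75th percentile of the processed intensity, to which every level below is relative, ran from 349 to 420 scanner units, 50.1% to 57.7% of spots were well above background, and no spot was saturated. The 12 arrays lay on 2 slides. All knockout arrays were on slide 2, as were the 12-week wild type arrays numbered 2 and 3, while slide 1 carried the other 4 wild type arrays. Slide and genotype thus coincide at 6 weeks, and fits with the slide as a fixed block rest on replicate 1 of the 12-week wild type. Il18 itself read from -0.12 to 0.04 in 12-week knockouts and from -0.37 to -0.02 in 6-week knockouts, against 2.15 to 2.49 in 12-week wild type and 2.35 to 2.44 in 6-week wild type livers. The probe was lower in every knockout array, as the labels have it. Of the Y-linked transcripts, Ddx3y and Eif2s3y were well above background on 12 of 12 arrays, Kdm5d on 0 of 12, and the 2 probes of Uty on 12 and 6. Neither probe of Xist, transcribed from the inactive X chromosome, was well above background on any of the 12. All 10 hepatocyte markers tested were well above background on every array.

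Cyp2a4/Cyp2a5 was lower in knockouts at 6 weeks, rose with age in knockouts and fell with age in wild type livers. Levels are log2 of the processed intensity relative to the array's 75th percentile. Probe 1 read 8.75, 8.82 and 8.45 in 12-week knockouts, against 7.34, 7.71 and 8.50 in 12-week wild type livers. It read 6.84, 7.33 and 7.20 in 6-week knockouts, against 9.38, 9.06 and 9.04 in 6-week wild type livers. The 6-week wild type arrays were the highest and the 6-week knockouts the lowest, with no overlap between them. At 12 weeks the groups overlapped, because replicate 3 of the wild type lay above the lowest knockout. Probe 2 read 7.25, 7.36 and 6.95 in 12-week knockouts, against 5.89, 6.01 and 6.98 in 12-week wild type livers. It read 5.16, 5.73 and 5.49 in 6-week knockouts, against 8.10, 7.74 and 7.73 in 6-week wild type livers. Both probes put the groups in the same order, the 6-week wild type mean highest, then the 12-week knockout, the 12-week wild type and the 6-week knockout.

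**Figure D1:**
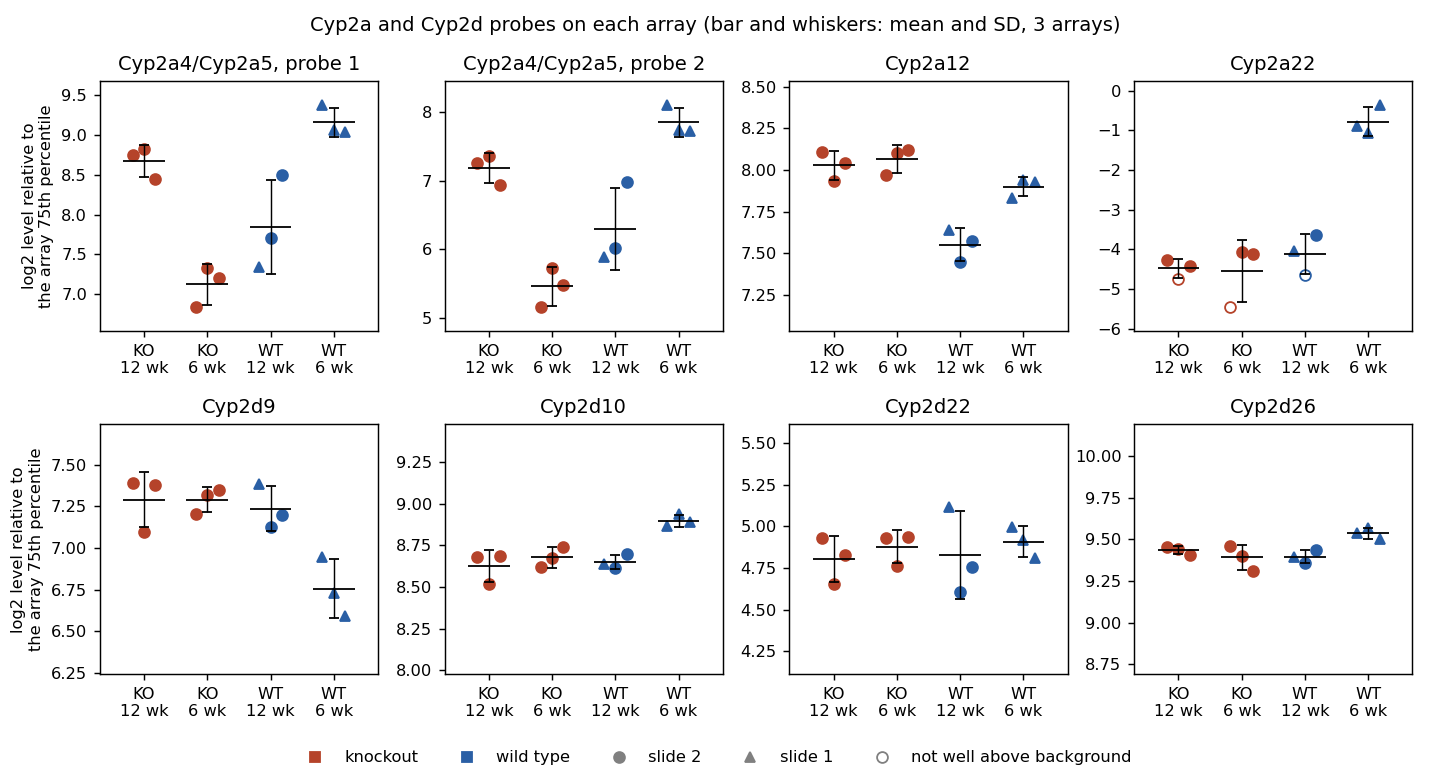
Log2 level of each Cyp2a and Cyp2d probe, relative to the array's 75th percentile, on every array of the 4 groups, with bars for the mean and whiskers for the SD of 3 arrays. Circles are arrays of slide 2 and triangles arrays of slide 1, open symbols were not well above background, and each panel has its own axis. The 6-week wild type arrays stand apart for Cyp2a22, between -1.07 and -0.37, and the Cyp2d22 groups overlap.

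At 6 weeks Cyp2a4/Cyp2a5 fell by 2.04 ± 0.26 (SE) on the log2 scale in knockouts, which is 4.10-fold (adjusted p = 0.000841, lower in 3 of 3 arrays). Probe 2, in a fit of every probe on its own, fell by 2.40 ± 0.27 (5.28-fold, adjusted p = 0.000479). With the slide as a fixed block the difference was -2.80 (adjusted p = 0.0104), and -2.33 with a random slide block (adjusted p = 0.0037). At 12 weeks the difference was 0.83 ± 0.26 (95% interval 0.25 to 1.40) and did not pass the threshold of 0.05 (adjusted p = 0.0783). Within slide 2 it was 0.57 (adjusted p = 0.249), and without replicate 3 of the 12-week wild type it was 1.15 and passed (adjusted p = 0.0102). In knockouts the level rose by 12 weeks, by 1.55 ± 0.26 (2.93-fold, adjusted p = 0.00741), a comparison that lies wholly on slide 2. In wild type livers it fell by 1.31 ± 0.26 by 12 weeks (2.48-fold, adjusted p = 0.0139). With only the compared arrays in the fit, that fall did not pass (adjusted p = 0.0905). Within slide 1, where the 12-week group has 1 array, the wild type difference was -1.82 (adjusted p = 0.0757), and without replicate 2 of the 12-week wild type it was -1.24 (adjusted p = 0.0522). The genotype difference at 12 weeks exceeded that at 6 weeks by 2.86 ± 0.37 (adjusted p = 0.00153), and by 3.37 with the slide as a fixed block (adjusted p = 0.00261).

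Cyp2a22, a further gene of the Cyp2a cluster, differed in a single group. It read -4.28, -4.76 and -4.41 in 12-week knockouts, against -4.04, -4.65 and -3.65 in 12-week wild type livers. It read -5.46, -4.08 and -4.11 in 6-week knockouts, against -0.90, -1.07 and -0.37 in 6-week wild type livers. The 6-week wild type arrays lay above the other 9, which overlapped one another. The probe was well above background on 2 of 3 arrays in each of the 12-week knockout, 6-week knockout and 12-week wild type groups and on 3 of 3 in the 6-week wild type, so it entered the test only through the group in which it was high. At 6 weeks the measured level fell by 3.77 ± 0.38 in knockouts (adjusted p = 0.000214), and by 3.65 with the slide as a fixed block (adjusted p = 0.034). At 12 weeks the genotype difference was -0.37 ± 0.38 (95% interval -1.21 to 0.47, adjusted p = 0.584). In wild type livers it fell by 3.33 ± 0.38 by 12 weeks (adjusted p = 0.00088), and in knockouts the age difference was 0.07 (95% interval -0.77 to 0.90, adjusted p = 0.954). Within slide 1 the wild type age difference was -3.25 (adjusted p = 0.0751). The genotype difference changed between ages by 3.40 ± 0.53 (adjusted p = 0.00407), and by 3.32 with the slide as a fixed block (adjusted p = 0.0246). No fold is given, since 1 array of each of the other 3 groups was not well above background, and the sizes depend on the background correction: with the normexp correction the 6-week difference was -1.92 and the wild type age difference -1.89.

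Cyp2a12, a steroid hydroxylase of mouse liver, was the one member called higher in knockouts at 12 weeks. It read 8.11, 7.93 and 8.04 in 12-week knockouts, against 7.64, 7.45 and 7.57 in 12-week wild type livers. It read 7.97, 8.10 and 8.12 in 6-week knockouts, against 7.84, 7.94 and 7.93 in 6-week wild type livers. All 12-week wild type arrays lay below the other 9. At 12 weeks Cyp2a12 rose by 0.47 ± 0.08 in knockouts (1.39-fold, adjusted p = 0.00923), and within slide 2 by 0.52 (adjusted p = 0.0377). With only the arrays of the 2 groups compared in the fit, the same difference did not pass (adjusted p = 0.077). At 6 weeks the difference was 0.17 (95% interval -0.02 to 0.35, adjusted p = 0.169). In wild type livers it fell by 0.35 ± 0.08 by 12 weeks (adjusted p = 0.0282). With the slide as a fixed block that difference was -0.26 and did not pass (adjusted p = 0.226), and with the replicate number as a block the adjusted p was 0.0502. The call was also lost without any single 6-week wild type array or without replicate 2 of the 12-week wild type (adjusted p from 0.0518 to 0.096). A random slide block lost it too (adjusted p = 0.0831). So did the fit without a filter on dim probes (adjusted p = 0.0675) and that with only the compared arrays (adjusted p = 0.128). In knockouts the age difference was -0.04 (95% interval -0.22 to 0.14, adjusted p = 0.854). The change of the genotype difference with age, 0.31 ± 0.12, did not pass (adjusted p = 0.123), so the 12-week difference is not shown to differ from that at 6 weeks.

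Cyp2d9, the male-biased member, was low in a single group. It read 7.39, 7.10 and 7.38 in 12-week knockouts, against 7.39, 7.12 and 7.20 in 12-week wild type livers. It read 7.21, 7.32 and 7.35 in 6-week knockouts, against 6.95, 6.73 and 6.59 in 6-week wild type livers. The 6-week wild type arrays were the lowest of the 12, and the other groups overlapped. At 6 weeks Cyp2d9 rose by 0.53 ± 0.12 in knockouts (1.45-fold, adjusted p = 0.0124). With the slide as a fixed block the difference was 0.76 and did not pass (adjusted p = 0.0828), while a random slide block gave 0.62 (adjusted p = 0.0455). At 12 weeks the difference was 0.05 (95% interval -0.21 to 0.31, adjusted p = 0.825). In wild type livers Cyp2d9 rose by 12 weeks, by 0.48 ± 0.12 (adjusted p = 0.033). That call was lost with the slide as a fixed block (0.63, adjusted p = 0.0667). It was lost without a filter on dim probes (adjusted p = 0.0714) and with only the compared arrays in the fit (adjusted p = 0.126). Within slide 1, where the 12-week group has 1 array, the difference was 0.63. Leaving out any of 6 single arrays also lost the call (adjusted p from 0.0518 to 0.11). These were 6-week wild type replicates 2 and 3, 12-week wild type replicates 1, 2 and 3, and 6-week knockout replicate 2. In knockouts the age difference was -0.0021 (95% interval -0.26 to 0.26). The change of the genotype difference with age, -0.48 ± 0.17, did not pass (adjusted p = 0.0976).

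The other Cyp2d members moved little. Cyp2d10 read 8.68, 8.52 and 8.69 in 12-week knockouts and 8.62, 8.67 and 8.74 in 6-week knockouts, against 8.64, 8.62 and 8.70 in 12-week wild type and 8.86, 8.93 and 8.89 in 6-week wild type livers. The 6-week wild type arrays lay above the other 9, and how many of all genes do so was not counted. The 6-week difference of -0.22 ± 0.07 (95% interval -0.38 to -0.06) did not pass (adjusted p = 0.056). It passed under quantile normalization (-0.32, adjusted p = 0.00682), with the normexp correction (-0.26, adjusted p = 0.016) and with a trended and robust variance (adjusted p = 0.0201). It also passed without replicate 1 of the 12-week wild type (adjusted p = 0.0462) or replicate 2 of the 12-week knockout (adjusted p = 0.049). The wild type age difference of Cyp2d10 was -0.24 ± 0.07 (95% interval -0.41 to -0.08) and did not pass either (adjusted p = 0.0636). That difference passed under quantile normalization (adjusted p = 0.0349), the normexp correction (adjusted p = 0.0218) and a trended and robust variance (adjusted p = 0.0214). Cyp2d26 read 9.45, 9.44 and 9.41 in 12-week knockouts and 9.46, 9.40 and 9.31 in 6-week knockouts, against 9.39, 9.35 and 9.43 in 12-week wild type and 9.53, 9.57 and 9.50 in 6-week wild type livers. Its 6-week difference of -0.14 (95% interval -0.29 to 0.00) did not pass (adjusted p = 0.139). Cyp2d22, whose enzyme is expressed in brain as well as liver, read 4.93, 4.65 and 4.83 in 12-week knockouts and 4.93, 4.76 and 4.94 in 6-week knockouts, against 5.12, 4.61 and 4.76 in 12-week wild type and 4.99, 4.92 and 4.81 in 6-week wild type livers. All 4 of its groups overlapped, and its genotype differences were -0.02 at 12 weeks (95% interval -0.31 to 0.26) and -0.03 at 6 weeks (95% interval -0.32 to 0.26).

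**Figure D2:**
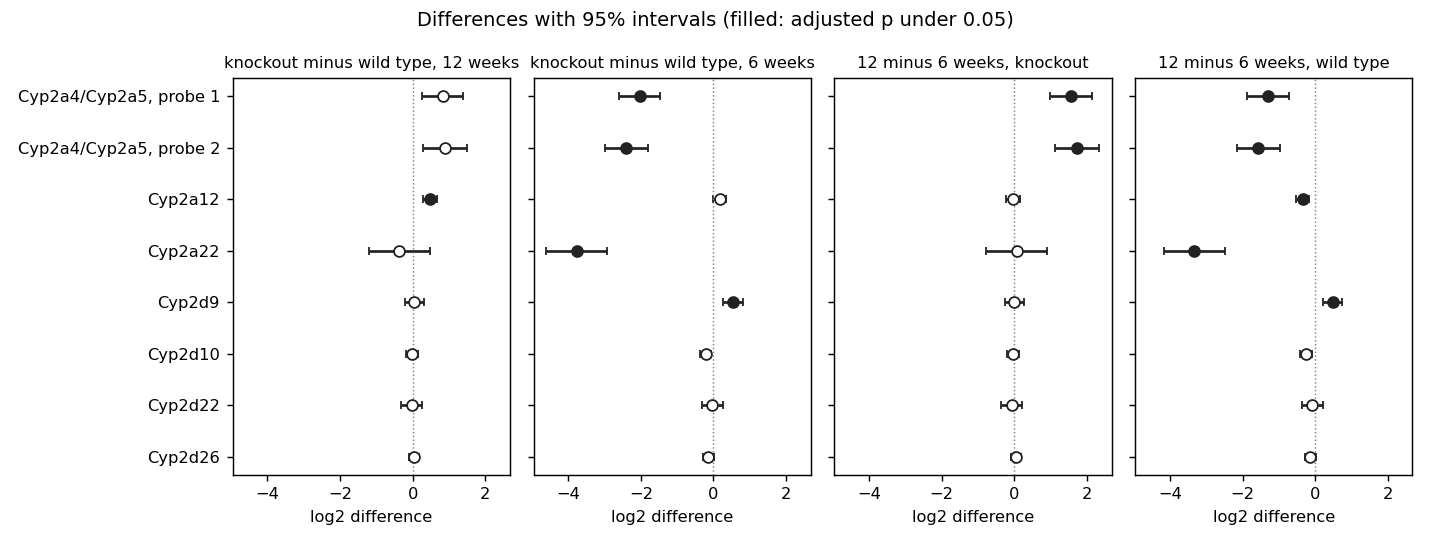
Log2 differences of each probe with their 95% intervals, in the fit of every probe on its own, for knockout minus wild type at 12 and at 6 weeks and for 12 minus 6 weeks in knockout and in wild type. Filled points had an adjusted p under 0.05. The 2 Cyp2a4/Cyp2a5 probes pass in 3 of the 4 comparisons and Cyp2d10, Cyp2d22 and Cyp2d26 in none.

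Set against all genes, 1 of 7 members was called at 12 weeks, Cyp2a12, higher in knockouts, where 8.21% of the 22116 genes were called (5.65% higher and 2.56% lower). At 6 weeks 3 of 7 were called, Cyp2d9 higher and Cyp2a4 and Cyp2a22 lower in knockouts, where 21.1% of genes were (11.7% higher and 9.35% lower). With age 1 of 7 was called in knockouts, Cyp2a4, higher at 12 weeks, where 6.91% of genes were (3.98% higher and 2.93% lower). In wild type livers 4 of 7 were called, 1 higher and 3 lower at 12 weeks, where 9.03% of genes were (4.61% higher and 4.42% lower). The genotype difference changed with age for 2 of 7, both toward higher in knockouts at 12 weeks, where 10.3% of genes were called (5.58% in that direction and 4.76% in the other). With 7 members, of which Cyp2a22 entered through its high group, these counts say little about the families as a whole. The median difference over the members was 0.04 at 12 weeks and -0.14 at 6 weeks, against 0.01 and 0.02 over all genes. The 4 comparisons share their groups, so a group that stands apart, as the 6-week wild type does, enters both the 6-week genotype comparison and the wild type age comparison.

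Among 26 other family 2 P450 genes tested, from Cyp2b, Cyp2c, Cyp2e, Cyp2j and further subfamilies, none was higher and 1 lower in knockouts at 12 weeks (median -0.03), and 6 were higher and 12 lower at 6 weeks (median -0.20). The one at 12 weeks was Cyp2c55, which fell by 1.27 ± 0.23 (adjusted p = 0.0109). At 6 weeks Cyp2c55 was 0.72 higher in knockouts (adjusted p = 0.0476), a call lost with the slide as a fixed block (0.375, adjusted p = 0.687). With the slide as a fixed block the 6-week counts were 1 higher and 4 lower. Of the 12 called lower without it, 10 were well above background on every array of both 6-week groups, and 2 entered the test through the 6-week wild type alone. These 2 were Cyp2b13 and Cyp2b9, female-biased genes that neighbour the Cyp2a cluster on chromosome 7, which were well above background on 0 of 3 knockout and 3 of 3 wild type arrays at 6 weeks. Cyp2b13 was at least 145.5-fold lower in 6-week knockouts (adjusted p = 8.19e-05) and Cyp2b9 at least 63.5-fold lower (adjusted p = 0.000163). Such a bound sets the mean of the brighter group against, per array of the dim group, the higher of the probe's own signal and the lowest signal well above background. Cyp2c37 fell by 1.11 ± 0.11 and Cyp2c39 by 1.29 ± 0.13, the second of which did not pass with that block (adjusted p = 0.0521). Cyp2b10, a target of the nuclear receptor CAR, fell by 5.70 ± 0.60 at 6 weeks (adjusted p = 0.000302) and differed by -1.62 at 12 weeks (adjusted p = 0.128). Other Cyp2d genes are named here for their family and not by their change. At 12 weeks Cyp2d11 and Cyp2d12 differed by 0.02 each, Cyp2d13 by 0.15, and Cyp2d34 and Cyp2d40 by -0.03 each, and none of these passed. The pseudogene Cyp2d37-ps rose by 0.39 ± 0.10 at 12 weeks in knockouts (adjusted p = 0.0428), a call lost with the slide as a fixed block (0.41, adjusted p = 0.0711) and within slide 2 (adjusted p = 0.122), and differed by -0.01 at 6 weeks. At 6 weeks Cyp2d11 differed by 0.21, Cyp2d12 by 0.06 and Cyp2d13 by -0.15, and none of these passed. Cyp2d40 rose by 1.10 ± 0.13 in 6-week knockouts (adjusted p = 0.000506), and by 1.27 with the slide as a fixed block (adjusted p = 0.0265). Cyp2d34 fell by 0.34 ± 0.07 (adjusted p = 0.0123), and its difference with the slide as a fixed block was -0.18 (adjusted p = 0.443). Transcripts of these neighbouring genes are close in sequence, and how far a probe also binds a relative's transcript was not tested.

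The enzymes that feed P450s with electrons and heme were mostly not called: of 17 genes, 2 were higher and none lower in knockouts at 12 weeks, and 2 were higher and 2 lower at 6 weeks. Under the fixed slide block 1 was higher and none lower at each age. Por, the oxidoreductase itself, read 6.38, 6.44 and 6.83 in 12-week knockouts, against 5.67, 6.05 and 6.26 in 12-week wild type livers. It read 4.80, 5.76 and 5.90 in 6-week knockouts, against 6.83, 6.62 and 6.86 in 6-week wild type livers. Por put its group means in the order that Cyp2a4/Cyp2a5 did. It fell by 1.28 ± 0.27 at 6 weeks in knockouts (adjusted p = 0.00956), with -1.77 under the slide as a fixed block (adjusted p = 0.0843), and differed by 0.55 at 12 weeks (adjusted p = 0.233). Uros, an enzyme of heme synthesis, rose by 0.61 ± 0.14 at 12 weeks (adjusted p = 0.0286), a call lost with the slide as a fixed block (adjusted p = 0.0729). At 6 weeks Cyb5a, a cytochrome that passes electrons to P450s, fell by 0.30 ± 0.07, and its mitochondrial relative Cyb5b rose by 0.46 ± 0.12, and both calls were lost with that block (adjusted p = 0.105 and 0.262). Of 4 erythroid markers tested, 2 were higher at 12 weeks, and 3 were higher and 1 lower at 6 weeks, against 1 higher at each age with the slide as a fixed block. Their summed level, relative to the 75th percentile, ran from 119 to 168 in 12-week knockouts against 73.9 to 105 in 12-week wild type, and from 115 to 182 in 6-week knockouts against 64.7 to 78.9 in 6-week wild type livers. That sum of linear levels rests mostly on its bright markers, with 6-week knockout means of 6.70 for Hba-a1 and 5.56 for Alas2 on the log2 scale. For Klf1 and Slc4a1 these means were -2.01 and -2.03. The part of erythroid cells in the Uros result was not tested, and more cells of a type cannot be told apart from more RNA per cell in whole liver.

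Of 35 regulators known for these families, 5 were higher and 1 lower in knockouts at 12 weeks, and 5 were higher and 5 lower at 6 weeks, with medians of 0.07 at both ages. Under the fixed slide block 3 were higher and 1 lower at 12 weeks, and 1 higher and 4 lower at 6 weeks. Dbp read 6.65, 6.87 and 6.86 in 12-week knockouts, against 4.92, 5.56 and 6.21 in 12-week wild type livers. It read 0.25, 0.14 and -0.09 in 6-week knockouts, against 7.04, 6.91 and 6.82 in 6-week wild type livers. The 6-week knockouts lay far below every other array. Dbp, like Cyp2a4/Cyp2a5, had its 6-week wild type mean highest, then the 12-week knockout, the 12-week wild type and the 6-week knockout. Within the 12-week wild type, replicate 3 was the highest and replicate 1 the lowest for Dbp and for both Cyp2a4/Cyp2a5 probes, and replicate 1 is also the array on slide 1.

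Dbp fell by 6.82 ± 0.26 at 6 weeks in knockouts (adjusted p = 6.28e-07) and rose by 1.23 ± 0.26 at 12 weeks (adjusted p = 0.0193), where the difference within slide 2 was 0.91 (adjusted p = 0.0588). Tef, its relative, fell by 2.80 ± 0.19 at 6 weeks (adjusted p = 2.66e-05) and rose by 0.87 ± 0.19 at 12 weeks (adjusted p = 0.0222). Within slide 2 its 12-week difference was 0.68 (adjusted p = 0.0745). Hlf fell by 1.01 ± 0.11 at 6 weeks (adjusted p = 0.000298) and rose by 0.48 ± 0.11 at 12 weeks (adjusted p = 0.0251), with 0.42 within slide 2 (adjusted p = 0.0992). Nfil3, a repressor that binds the same sites, was opposite in sign at 6 weeks, where it rose by 2.80 ± 0.13 (adjusted p = 3.46e-06). At 12 weeks it differed by -0.27 (adjusted p = 0.248). A fixed slide block kept the 12-week calls of Dbp (adjusted p = 0.0264) and Tef (adjusted p = 0.049) and lost that of Hlf (adjusted p = 0.0656). The 6-week differences under that block were -7.79 for Dbp, -3.38 for Tef, -1.175 for Hlf and 2.62 for Nfil3. Foxa3, a forkhead factor of the hepatocyte, fell by 0.53 ± 0.11 at 12 weeks. Dbp, Tef, Hlf and Nfil3 keep time of day in mouse liver, the labels give no time of killing, and whether the time differed between groups was not tested.

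**Figure D3:**
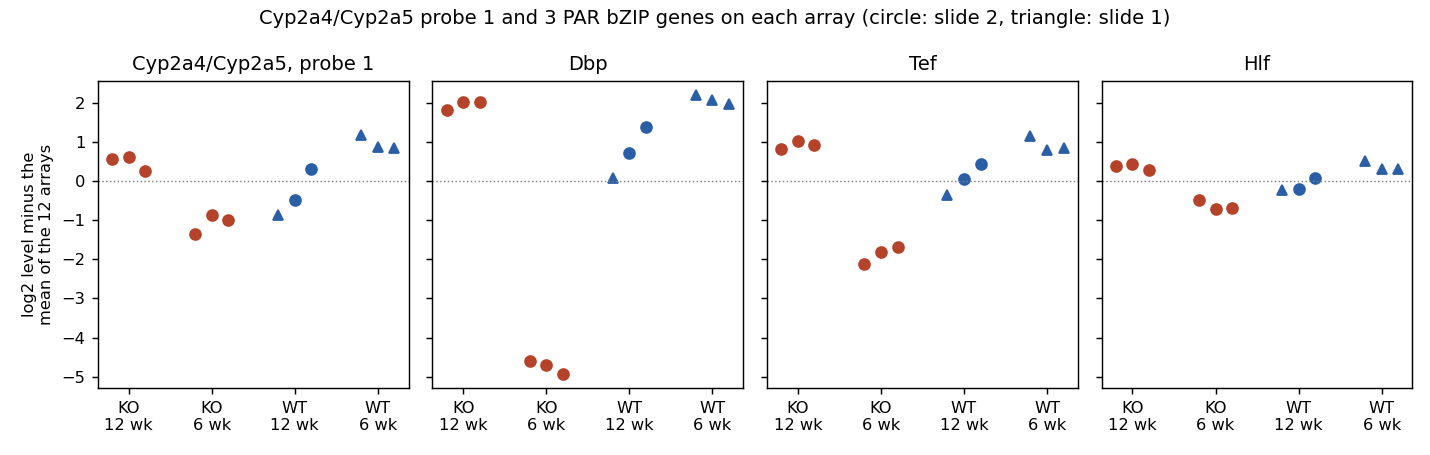
Log2 level minus the mean of the 12 arrays for Cyp2a4/Cyp2a5 probe 1 and for the PAR bZIP genes Dbp, Tef and Hlf, on every array of the 4 groups. Red is knockout and blue wild type, circles are slide 2 and triangles slide 1. In all 4 panels the 3 lowest arrays are the 6-week knockouts.

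Genes known to differ between the sexes in mouse liver were read beside the members. Of 18 male-biased genes tested, none was higher and 1 lower in knockouts at 12 weeks, and 15 were higher and none lower at 6 weeks (medians 0.02 and 1.71). Of 20 female-biased genes, 1 was higher and 4 lower at 12 weeks, and none was higher and 17 lower at 6 weeks (medians -0.22 and -2.75). With the slide as a fixed block the 6-week counts were 10 male-biased genes higher and 7 female-biased genes lower, and at 12 weeks no male-biased gene and 1 female-biased gene, Cyp39a1, passed. Of the 20 female-biased genes, 18 were well above background on every 6-week wild type array, against 10 on every 6-week knockout array and 10 on every 12-week wild type array. Of the 17 called lower at 6 weeks without the block, 7 were well above background on every array of both groups, and 5 entered the test through the 6-week wild type alone, the group in which they were high, so the count and median are no support for a shift of the list. Elovl3, a fatty acid elongase, rose by 6.16 ± 0.34 at 6 weeks (adjusted p = 9.47e-06), and Cyp7b1, an oxysterol hydroxylase, by 3.60 ± 0.21 (adjusted p = 9.98e-06). C6 rose by 3.71 ± 0.16 and Hsd3b5 by 2.83 ± 0.22. Hao2, a hydroxy acid oxidase, was well above background on no 6-week knockout array and on all 3 of the 6-week wild type, and was at least 12.9-fold lower in knockouts (adjusted p = 3.7e-05). Cyp39a1 fell by 1.42 ± 0.12 at 6 weeks. At 12 weeks it fell by 0.66 ± 0.12, and by 0.63 with the slide as a fixed block (adjusted p = 0.0306). Of the members called at 6 weeks, Cyp2d9, male-biased, was higher and Cyp2a4/Cyp2a5 and Cyp2a22 were lower in knockouts. Cyp2a12 was 0.17 higher and did not pass (adjusted p = 0.169). The Cyp2a4/Cyp2a5 probes do not tell the female-biased Cyp2a4 from Cyp2a5, and Cyp2a22 entered the test only through its high group. Whether the changes of the members belong with those of the lists was not tested. The wild type age comparison, which shares the 6-week wild type, had 14 of 18 male-biased genes higher and 13 of 20 female-biased genes lower at 12 weeks, and 6 of these 13 entered the test through 1 group alone. In knockouts 3 male-biased genes were lower at 12 weeks, and 1 female-biased gene was higher and 1 lower. These lists name genes that differ between the sexes in adult mice, and of the Y-linked transcripts above, Ddx3y and Eif2s3y were well above background on all 12 arrays.

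The Cyp2a and Cyp2d genes are hepatocyte genes, and markers of liver zones and of other cells were read beside them. Hepatocyte markers gave 1 of 10 lower at 12 weeks (Apoa1, -0.41), and 2 of 10 higher and 1 lower at 6 weeks (Tat, 0.92, and Apoa1, 0.30, against Tdo2, -0.42). Their summed level ran from 5504 to 6087 in 12-week knockouts against 6022 to 6503 in 12-week wild type, and from 6105 to 6894 in 6-week knockouts against 6597 to 6815 in 6-week wild type livers. Of 14 pericentral genes, 3 were lower at 12 weeks (among them Axin2 and Cyp1a2) and 1 at 6 weeks (Slc1a2), and none was higher. No hepatocyte or pericentral marker passed at either age with the slide as a fixed block. Of 10 periportal genes, 3 were higher at 12 weeks (Sds, Gls2 and Cps1) and 1 at 6 weeks (Sdsl), and none was lower, against 2 higher (Sds and Gls2) and none with the slide as a fixed block. The summed level of the periportal genes ran from 2136 to 2440 in 12-week knockouts against 1838 to 1989 in 12-week wild type livers. Sds, serine dehydratase, was 1.16 ± 0.12 higher in knockouts than in wild type livers at 12 weeks (adjusted p = 0.00148). None of 7 Kupffer cell markers passed at either age. Single markers passed among endothelial (Oit3, 0.52 at 12 weeks, and Kdr, -0.54 at 6 weeks), stellate (Lrat, -0.50 at 6 weeks) and cholangiocyte genes (Spp1, -0.52 at 12 weeks, and Sox9, 1.81, and Cftr, -0.99, at 6 weeks). Under that block no endothelial or stellate marker passed at either age, Spp1 stayed lower at 12 weeks and Cftr, well above background on 1 of 3 knockout arrays, at 6 weeks. Of 9 lymphocyte markers, 3 were lower in knockouts at 12 weeks (Cd3g, -1.77, Jchain, -1.49, and Cd4, -0.96) and 1 at 6 weeks (Cd3g, -0.66), where Cd3g was well above background on 1 of 3 and 2 of 3 knockout arrays at these ages. Under the slide block the same 3 were lower at 12 weeks and none passed at 6 weeks. The summed level of the 9 lymphocyte markers ran from 37.7 to 48.6 in 12-week knockouts against 63.2 to 103 in 12-week wild type livers. At 6 weeks it ran from 46.5 to 62.5 in knockouts against 66.0 to 67.9 in wild type livers. This sum adds linear levels and at 12 weeks followed mainly the Cd4 probe. On the log2 scale Cd4 read a mean of 5.1 in 12-week knockouts and 6.1 in 12-week wild type, against -4.6 and -2.8 for Cd3g. None of 3 pancreas and fat markers passed. The part of these shifts in the Cyp2a and Cyp2d results was not tested.

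**Figure D4:**
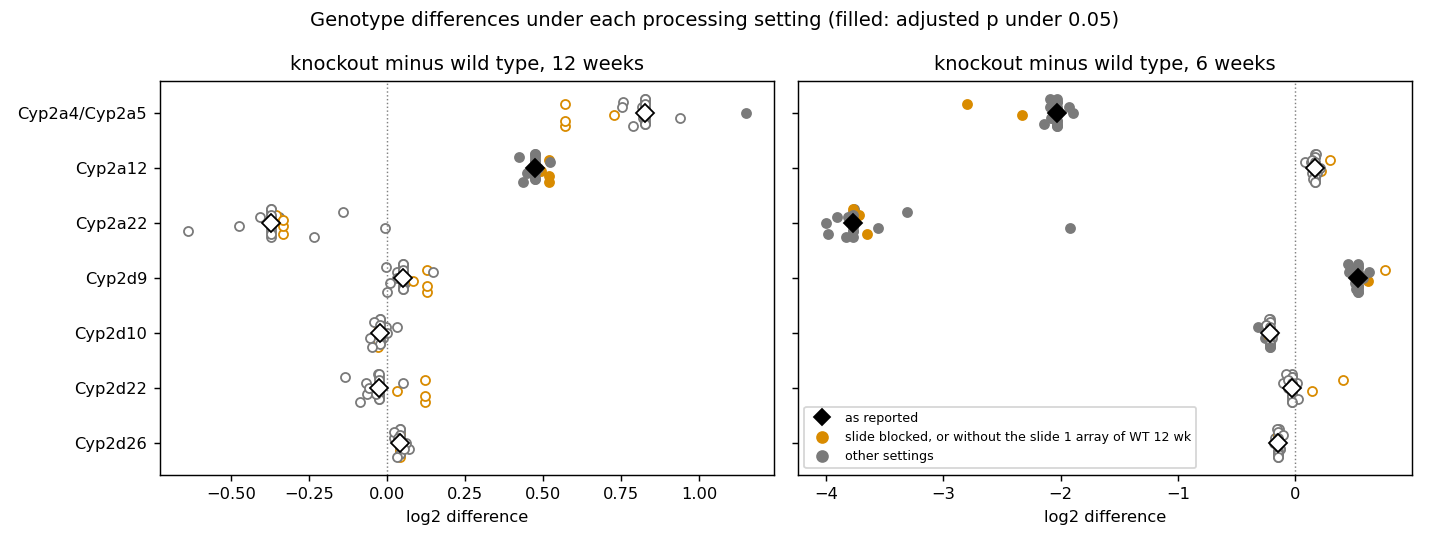
Genotype differences of the 7 genes, knockout minus wild type, at 12 weeks (left) and 6 weeks (right) under each processing setting, on a log2 axis whose range differs between the panels. Diamonds are the values as reported, orange circles the fits with the slide as a block, within slide 2 or without the slide 1 array of the 12-week wild type, grey circles all other settings, and filled symbols had an adjusted p under 0.05. Cyp2a12 stays between 0.42 and 0.52 at 12 weeks, and Cyp2a22 at 6 weeks moves to -1.92 with the normexp correction.

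The genes whose levels ran most like each member over the 12 arrays were found by the root mean square difference of the centred log2 levels, among 13844 genes with a symbol. For Cyp2a4/Cyp2a5 (SD over the arrays 0.83) they were Gstt3 at 0.19, Slc5a6 at 0.23 and Gsta2 at 0.26, of which Gstt3 and Gsta2 encode glutathione transferases and Slc5a6 a vitamin transporter. For Cyp2a22 (SD 1.62) they were Vldlr at 0.55, Kif9 at 0.58 and Tafa2 at 0.60. For Cyp2d9 (SD 0.25) they were Zfp169 at 0.07, Mup20 at 0.09 and Gmeb2 at 0.12, and Mup20, a urinary protein, is one of the male-biased genes. The nearest gene to Cyp2a12 was Cox11 (0.07), followed by Dnaaf5 and Ddx24, and that to Cyp2d10 was Smim26 (0.04), followed by Blvra and Nit2. For Cyp2d22 the nearest were Dhrs1, Apobec3 and Rbp3, and for Cyp2d26 Gtpbp10, Dld and Pip4p2. The last 2 members varied so little (SD 0.14 and 0.07) that likeness to them, at 0.08 and 0.05 for the nearest gene, means mainly a flat level. The 12 arrays share 2 slides and 4 groups, so these values describe the arrays and carry no test.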

How the data were processed

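Liver RNA was hybridised to 12 arrays, and the labels gave 4 groups of 3. Per the file headers, the authors quantified the arrays with Agilent Feature Extraction 10.7.3.1, which gave a processed intensity, background-subtracted and not scaled between arrays, and raw mean and background intensities. The deposited value table holds that processed intensity, on a linear scale and not centred, and differed from it by at most 0.497%. Its column medians lay between 21.6 and 29.5. Probe positions are on mm9, per the file headers.

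From the deposited intensities, control and outlier spots were left out, log2 was taken and the array's 75th percentile subtracted. A probe was tested if every array of some group had it well above background (29791 of 55681), and each gene kept its brightest probe, which left 22116 genes. Group means over the 12 arrays were fitted with limma 3.58.1 in R 4.3.3 (8 residual and 2.23 prior degrees of freedom). Adjusted p-values are limma's with Benjamini-Hochberg over all genes, at a threshold of 0.05. Fits were tested on simulated data. Errors are standard errors, and the number of arrays limits the precision. Symbols were updated through a RefSeq table by accession for 26582 probes. Promoters and motifs were searched in Python 3.11.15.

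The genes named are all members, up to 4 genes of each list per genotype comparison with the smallest p among those that passed, Dbp, Il18 and Cyp2b10, and the 3 genes most like each member. Cyp2d relatives, Por, Tef, Hlf and Nfil3 at the other age, and the sex-chromosome transcripts were added after their values were seen. The members and lists were chosen with earlier results of these data known. Same-numbered replicates did not deviate together: their correlations ran from -0.086 to 0.18 over 18 pairs, against -0.199 to 0.187 over 36 pairs of different numbers, so the numbers do not pair the arrays. The alternatives tried were quantile normalization, the normexp correction (offset 50), the deposited value table, other filters and variance settings, blocks for slide and replicate number, single slides, and leaving out each array. Within-slide wild type ages were added after seeing the data. Some genes that the rule took are left out of the text.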

Additional observations from a re-analysis of the deposited data

Results flagged for a closer look

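The genotype difference of 2 members differed between ages by the test of that change. For Cyp2a4/Cyp2a5 the difference at 12 weeks minus that at 6 weeks was 2.86 ± 0.37 on the log2 scale (adjusted p = 0.00153), with all 3 of the 6-week knockouts below all 6-week wild type arrays. For Cyp2a22 it was 3.40 ± 0.53 (adjusted p = 0.00407), and the 6-week wild type alone stood apart. Cyp2a22 was well above background on 9 of 12 arrays and entered the test only through that group, and with the normexp background correction the change was 1.92. Slide 1 held every 6-week wild type array and slide 2 every knockout array, so genotype and slide cannot be told apart at 6 weeks without the 12-week wild type array on slide 1.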

How the results depend on the processing

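Among the values of single members under the alternatives, 777 kept their side of the threshold, 26 lost it and 11 passed it newly. Of the 777, 740 kept their direction and 37, none of them called, changed sign, 23 of them values of Cyp2d22. At 12 weeks the count of members called between genotypes was 1, and 0 with only the compared arrays in the fit. Leaving out 1 array gave 1 to 2, where 2 came without the third 12-week wild type array. The 6-week count of 3 stayed within 1.5 times under every alternative. The count with age in wild type livers was 4, and 2 without a filter on dim probes, 1 with only the compared arrays, 2 with the slide as a fixed block and 0 within slide 1. Leaving out 1 array gave 1 to 4: 2 without replicate 2 or 3 of the 6-week wild type and 1 without replicate 2 of the 12-week wild type. The count for the change between ages was 2, with 4 under quantile normalization, where Cyp2a12 (0.39, adjusted p = 0.0394) and Cyp2d10 (0.32, adjusted p = 0.0435) passed, and 1 where probes had to be well above background on all 12 arrays, which leaves Cyp2a22 out. Fewer arrays or genes enter some of these fits, and otherwise the cause was not tested. Across all genes the 6-week count of 4658 was 589 with the slide as a fixed block and 1226 as a random block, and the 12-week count of 1815 was 1281 with the fixed block. With the replicate number as a block Cyp2a12 lost its wild type age call (adjusted p = 0.0502), and no other member's call changed. The signal over background limits Cyp2a22 alone, which was well above it on 9 of 12 arrays.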
